A study of Mus musculus with 8 samples.

Results

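The cell cycle and DNA replication genes described here are 42 named mouse genes, sorted by textbook role into a G1 group of 17, an S-phase group of 10 and a G2/M group of 15. They were measured in RNA recovered with an antibody to ELAVL1 (also called HuR), and every probe whose gene symbol was on the list was taken. Of the 42 genes, 38 had a probe named here, which gave 72 of the 25697 probes, from an array with 16593 distinct gene symbols. The genes Mki67, Aurkb, Ccnb1 and Cdk4 had no probe named here and were not analysed here. No member was called higher or lower in GnRH libraries than in vehicle libraries, against 0.265% (higher) and 0% (lower) of all 11318 tested probes. With so few probes called over the array, the absence of calls does not set these genes apart. The groups overlapped for every tested probe of these genes. All GnRH values lay above all vehicle values for 1.53% of all tested probes, and below them for 0.618%.

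RNA that came down with ELAVL1 from LbetaT2 cells was hybridised to 8 Illumina mouse bead arrays. The 4 GnRH libraries came from cells given GnRH for 30 min after 16 h without serum, and the 4 vehicle libraries came from cells given vehicle for the same time after the same serum starvation. LbetaT2 is a mouse pituitary line of the gonadotrope lineage, derived from a tumour of a mouse that carried the simian virus large T antigen under a gonadotropin promoter. No RNA from before the pull-down and no control pull-down was analysed here, so a level is the amount recovered, in which transcript abundance and binding to ELAVL1 cannot be told apart. The sources used here do not say whether the replicates were separate cultures, so the p-values measure the spread between these libraries, which may be technical. In bulk RNA, fewer cells of a phase and less RNA per cell cannot be told apart.

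ELAVL1 binds AU- and U-rich stretches of RNA and is known to stabilise many messages. In human cancer cell lines the messages of cyclin A2, cyclin B1, cyclin D1 and the inhibitor p21 are among its described targets. In G1, D-type cyclins with CDK4 or CDK6 and then E-type cyclins with CDK2 phosphorylate the retinoblastoma protein, which releases E2F factors. E2F factors drive genes of DNA replication, such as the MCM helicase and the enzymes that make deoxynucleotides. Genes of G2 and mitosis are driven later, in many cases through CHR and CCAAT elements in their promoters. Large T antigen binds the retinoblastoma protein, which sets E2F factors free. GnRH, the hypothalamic decapeptide that acts on gonadotropes, activates MAP kinase signalling in these cells.

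The phase groups were also described by their promoters, taken from RefSeq (GRCm38.p6) as the 250 bases before and 50 after a gene's start, because the E2F and CHR elements are what textbook accounts use to set S-phase genes apart from G2/M genes. The motifs searched on both strands were TTTGGCGC and TTTCGCGC for E2F, TTTGAA for CHR, and CCAAT. A promoter entry was matched for 29 members. These were not filtered for a tested probe, and Cdk6, Ccnb2 and Bub1 among them had none, unlike the genes with a tested probe set beside them. An E2F match was present in 4 of 9 S-phase genes (44.4%), all of them MCM genes (Mcm3, Mcm5, Mcm6 and Mcm7), in 2 of 11 G1 genes (18.2%) and in 1 of 9 G2/M genes (11.1%), against 1.90% of the 6646 matched genes with a tested probe and 0.929% of all 27025 genes. A CHR match was present in 6 of 9 G2/M genes (66.7%), namely Aurka, Ccnb2, Cdc20, Cdk1, Plk1 and Top2a, in 2 of 11 G1 genes (18.2%) and in 1 of 9 S-phase genes (11.1%), against 13.8% of genes with a tested probe and 20.2% of all genes. CCAAT was present in 8 of 9 G2/M genes, 8 of 9 S-phase genes and 7 of 11 G1 genes, against 43.8% of genes with a tested probe and 41.1% of all genes. Matches are descriptions of letters and not binding sites, and 1 member promoter held matches of different motifs that overlapped.

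Mcm5 (chr8:75109259-75109558, plus strand) and Mcm6 (chr1:128359656-128359955, minus strand) are shown for E2F matches without CHR, Cdk1 (chr10:69352863-69353162, minus strand) for both, and Cdc20 (chr4:118437294-118437593, minus strand) for CHR without E2F. Capitals mark matches of any of the 3 motifs on either strand, and each sequence runs 5′ to 3′ on the strand of its gene. In Cdk1, which drives entry into mitosis, the E2F match began 131 bases before the start and the CHR matches 71 and 15 bases before it. The CHR match of Cdc20 began 18 bases before the start.
Mcm5: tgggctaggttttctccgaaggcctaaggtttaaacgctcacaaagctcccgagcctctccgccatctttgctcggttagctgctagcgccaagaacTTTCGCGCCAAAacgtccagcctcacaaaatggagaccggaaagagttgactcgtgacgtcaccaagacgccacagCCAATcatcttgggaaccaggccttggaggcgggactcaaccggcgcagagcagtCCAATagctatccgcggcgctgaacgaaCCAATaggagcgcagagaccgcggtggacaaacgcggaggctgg
Mcm6: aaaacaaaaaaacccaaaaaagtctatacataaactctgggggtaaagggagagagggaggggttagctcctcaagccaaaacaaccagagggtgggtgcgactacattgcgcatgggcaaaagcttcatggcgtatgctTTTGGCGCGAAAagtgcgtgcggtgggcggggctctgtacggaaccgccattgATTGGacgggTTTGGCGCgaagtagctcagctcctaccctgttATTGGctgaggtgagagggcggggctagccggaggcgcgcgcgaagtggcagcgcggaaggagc
Cdk1: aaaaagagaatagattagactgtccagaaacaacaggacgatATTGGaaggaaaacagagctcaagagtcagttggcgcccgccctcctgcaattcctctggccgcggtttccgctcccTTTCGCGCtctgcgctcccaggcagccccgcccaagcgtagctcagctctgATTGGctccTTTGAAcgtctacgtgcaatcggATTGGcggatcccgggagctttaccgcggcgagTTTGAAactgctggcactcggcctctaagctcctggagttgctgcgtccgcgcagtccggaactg
Cdc20: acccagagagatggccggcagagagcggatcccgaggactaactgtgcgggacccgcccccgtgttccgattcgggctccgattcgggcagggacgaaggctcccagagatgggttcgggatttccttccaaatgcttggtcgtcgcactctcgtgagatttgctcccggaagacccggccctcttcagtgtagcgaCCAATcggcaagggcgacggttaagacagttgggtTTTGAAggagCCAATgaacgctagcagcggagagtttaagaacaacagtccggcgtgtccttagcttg

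Raw median signal was 37.4 to 42.1 on the GnRH arrays and 33.4 to 41.7 on the vehicle arrays, lowest in vehicle replicate 4. Between 42% and 45.4% of probes had a detection p below 0.05, here called above background. Gnrhr and Cga, the GnRH receptor and the gonadotropin alpha subunit, were above background on all 8 arrays, as were the pituitary factors Lhx3 and Pitx1. For Nr5a1, probe ILMN_1254140 was above background on 3 GnRH arrays and 1 vehicle array, and probe ILMN_2749611 on 0 GnRH arrays and 1 vehicle array. Lhb and Fshb, the gonadotropin beta subunits that define mature gonadotropes, were above background on none. Of the markers of other pituitary lineages, Drd2 was above background on all arrays and Gh, Prl, Tshb, Pomc, Ghrhr and Tbx19 on none. The endothelial markers Cdh5 and Pecam1 were above background on all arrays and Kdr on 3 GnRH and 3 vehicle arrays, and none of the tested endothelial probes was called. All collagen, Dcn, Pdgfrb and blood cell probes were above background on no array.

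Signals were background-corrected, quantile normalised and put on the log2 scale, and each value below is such a log2 signal of 1 probe, given for replicates 1 to 4 in turn. A change is the mean log2 signal in GnRH minus that in vehicle libraries (n = 4 each), and its SE and interval come from limma. Different probes hybridise with different strength, so the level of 1 probe is not set against that of another. A probe was tested if it was above background on at least 4 of 8 arrays, which held for 59 of the 72 member probes (81.9%) and 33 genes, against 11318 of all 25697 probes (44.0%). The tested share was 24 of 31 probes in G1 (77.4%), 19 of 20 in S phase (95%) and 16 of 21 in G2/M (76.2%). On all 8 arrays 52 member probes were above background, 21 of G1, 17 of S phase and 14 of G2/M genes.

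Among the 59 tested probes, limma with Benjamini-Hochberg adjustment over all 11318 probes called 0 higher in GnRH libraries, against 0.265% of all tested probes, and 0 lower, against 0% of all tested probes. The adjusted p was 1.00 for each of them. An unadjusted p below 0.05 was also reached by 0 member probes in the higher direction, against 2.09% of all tested probes, and by 0 in the lower direction, against 0.813%. No tested member probe had all 4 GnRH values above all 4 vehicle values, which 1.53% of tested probes had, and none had all 4 below, which 0.618% had. The members' change was positive for 20 probes and negative for 39, against 5439 and 5879 of all tested probes, and its median was -0.06 (quartiles -0.17 and 0.06), against -0.01 (quartiles -0.12 and 0.11) over all tested probes. Of the 33 tested member genes, 15 had several tested probes, so these are counts of probes and not of independent genes. The 95% interval lay within 1 log2 unit of 0 for 51 of the 59 probes, against 10633 of all 11318 tested probes. For those 51, a change of 1 log2 unit in the processed signal, in either direction, lay outside the interval. The offset shrinks changes of dim probes, so for dim probes this does not bound the change in RNA. The other 8 of the 59 probes, of Ccne2, Cdk2, Cdkn1b (both tested probes), Tyms, Cdc20, Cdc25c and Top2a, had wider intervals.

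**Figure D1:**
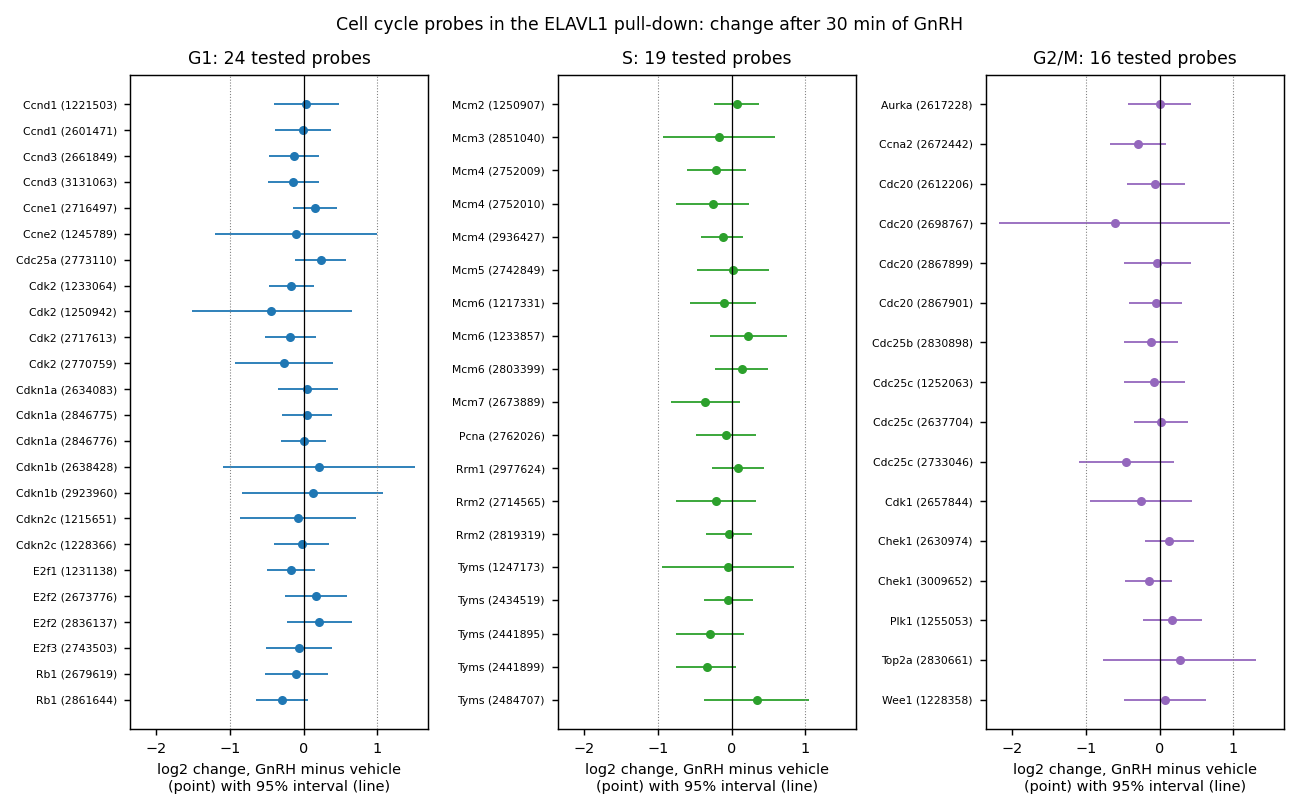
Change in log2 signal, GnRH minus vehicle, of each tested member probe by phase group, with points at the change and bars at the 95% interval from limma. Every interval includes 0, and the widest belongs to a Cdc20 probe (-2.18 to 0.96).

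Of the D-type cyclins, which start the G1 program, Ccnd1 and Ccnd3 had tested probes, and Ccnd2 was above background on no array. Ccnd1 probe ILMN_1221503 had 5.28, 5.31, 5.30 and 4.83 in GnRH libraries, against 5.39, 5.45, 5.09 and 4.66 in vehicle libraries. GnRH replicate 4 and vehicle replicate 4 were the lowest of their groups and the groups overlapped, with a change of 0.03 ± 0.20 (SE, 95% interval -0.41 to 0.48). This probe was above background on 4 GnRH and 3 vehicle arrays. The other tested Ccnd1 probe (ILMN_2601471, change -0.01 ± 0.17) was above background on 3 and 2, and the remaining Ccnd1 probe on 0 and 1. The 2 tested changes lay on both sides of 0, each smaller than its SE. Ccnd3 (ILMN_3131063) had 8.28, 8.59, 8.71 and 8.65 in GnRH libraries, against 8.51, 8.99, 8.66 and 8.62 in vehicle libraries. Its GnRH replicate 1 was lowest and its vehicle replicate 2 highest, with a change of -0.14 ± 0.16 (SE, 95% interval -0.49 to 0.21). Another Ccnd3 probe (ILMN_2661849), above background on 1 GnRH and 3 vehicle arrays, had a change of -0.13 ± 0.15, and the Ccnd3 probe left untested was above background on 1 array of each group. Cdk6, a kinase partner of the D-type cyclins, was not above background on any array. Its untested probe had 4.32, 4.36, 4.31 and 4.46 in GnRH libraries, against 4.26, 4.31, 4.24 and 4.27 in vehicle libraries, which gives no fold as both groups are below background.

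The CDK inhibitor genes were measured for Cdkn1a, Cdkn1b and Cdkn2c, and Cdkn1c was above background on no array. Cdkn1a encodes p21, which inhibits cyclin-CDK complexes after DNA damage and other stress. Its probe ILMN_2634083 had 10.06, 10.07, 10.52 and 9.87 in GnRH libraries, against 10.13, 10.33, 10.11 and 9.74 in vehicle libraries. GnRH replicate 3 was the highest and vehicle replicate 4 the lowest library, with a change of 0.05 ± 0.18 (SE, 95% interval -0.35 to 0.46). The other Cdkn1a probes had changes of 0.04 ± 0.15 and -0.00 ± 0.14, so the signs of the 3 were mixed around 0. Cdkn1b encodes p27, which holds CDK2 inactive in resting cells. Its probe ILMN_2638428 had 10.24, 9.76, 10.31 and 11.65 in GnRH libraries, against 10.55, 9.57, 9.05 and 11.99 in vehicle libraries. Replicate 4 was the highest library of each group, and the spread within groups was far larger than the change of 0.21 ± 0.59 (SE, 95% interval -1.10 to 1.51). The second Cdkn1b probe (ILMN_2923960) had 8.21, 7.59, 7.52 and 8.43 in GnRH libraries, against 8.83, 6.82, 7.10 and 8.51 in vehicle libraries, with vehicle replicate 1 highest and a change of 0.12 ± 0.43 (SE, 95% interval -0.84 to 1.08). The remaining Cdkn1b probe was above background on no array. Both tested probes of Cdkn2c, an inhibitor of CDK4 and CDK6, had small negative changes (-0.08 ± 0.36 and -0.03 ± 0.17).

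In the G1 group, the 5 genes with the lowest unadjusted p were Rb1, Cdc25a, Cdk2, E2f1 and Ccne1. Rb1, the retinoblastoma protein that holds E2F factors back, had 10.67, 10.53, 10.88 and 10.66 in GnRH libraries, against 10.66, 11.03, 11.25 and 10.97 in vehicle libraries on probe ILMN_2861644. Vehicle replicates 2, 3 and 4 lay above every GnRH library and vehicle replicate 1 lay among them, with a change of -0.30 ± 0.16 (SE, 95% interval -0.65 to 0.06). The other Rb1 probe had a change of -0.10 ± 0.19. Cdc25a, a phosphatase that activates CDK2, had 9.37, 9.70, 9.13 and 9.49 in GnRH libraries, against 9.28, 9.05, 9.10 and 9.34 in vehicle libraries. GnRH replicate 3 lay within the vehicle range and the other GnRH libraries above it, with a change of 0.23 ± 0.16 (SE, 95% interval -0.12 to 0.58).

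Cdk2, the kinase of the G1/S transition, had 12.40, 12.54, 12.58 and 12.40 in GnRH libraries, against 12.45, 12.65, 12.83 and 12.66 in vehicle libraries on probe ILMN_1233064. All GnRH libraries lay in the lower part of the vehicle range or below it, with a change of -0.17 ± 0.14 (SE, 95% interval -0.47 to 0.14). Its other tested probes had changes of -0.18 ± 0.16, -0.27 ± 0.30 and -0.44 ± 0.49, all negative. E2f1, an activating E2F factor, had 10.07, 10.41, 10.11 and 10.01 in GnRH libraries, against 10.08, 10.39, 10.46 and 10.32 in vehicle libraries, and vehicle replicate 1 lay among GnRH replicates 1, 3 and 4, below the other vehicle libraries. Its change was -0.17 ± 0.15 (SE, 95% interval -0.50 to 0.16). Ccne1, the cyclin E partner of CDK2, had 5.25, 5.22, 5.17 and 5.33 in GnRH libraries, against 5.17, 5.27, 5.04 and 4.90 in vehicle libraries, with vehicle replicates 3 and 4 lowest and a change of 0.15 ± 0.13 (SE, 95% interval -0.15 to 0.45). Ccne2, the second E-type cyclin, had 7.08, 5.55, 6.47 and 5.92 in GnRH libraries, against 7.98, 5.94, 5.84 and 5.69 in vehicle libraries. Vehicle replicate 1 stood above the rest, and the change of -0.11 ± 0.50 (SE, 95% interval -1.21 to 0.99) had a wide interval. The E2f2 probes had changes of 0.17 ± 0.19 and 0.21 ± 0.20 and the E2f3 probe by -0.06 ± 0.20, with overlapping groups.

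**Figure D2:**
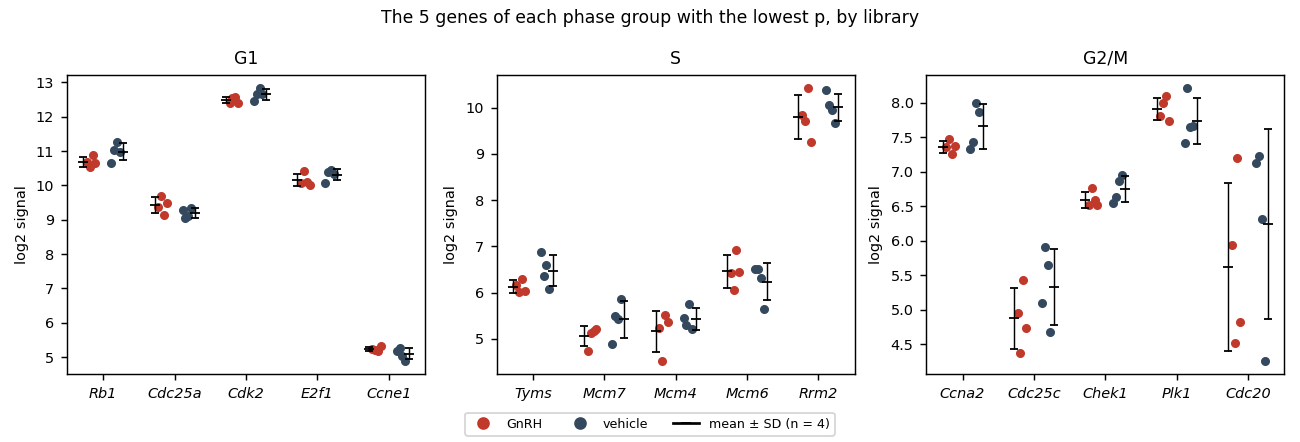
Log2 signal in each library of the 5 genes per phase group with the lowest unadjusted p, GnRH libraries left of vehicle libraries, with points for libraries and bars for the mean and SD (n = 4 each). For every gene the GnRH and vehicle points overlap.

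In S phase the MCM genes, which encode subunits of the replicative helicase, were each measured on at least 1 tested probe. Mcm2 had 9.21, 9.28, 9.09 and 8.95 in GnRH libraries, against 9.14, 9.07, 9.15 and 8.91 in vehicle libraries. The libraries of both groups lay close together, with a change of 0.07 ± 0.14 (SE, 95% interval -0.24 to 0.37). Mcm3, above background on 4 GnRH and 3 vehicle arrays, had 5.30, 4.72, 5.87 and 5.02 in GnRH libraries, against 5.79, 5.96, 5.40 and 4.42 in vehicle libraries. Vehicle replicate 4 was its lowest library and vehicle replicate 2 its highest, with a change of -0.17 ± 0.34 (SE, 95% interval -0.93 to 0.59). Mcm4 had 12.59, 12.54, 12.66 and 12.50 in GnRH libraries, against 12.62, 12.60, 12.82 and 12.76 in vehicle libraries on probe ILMN_2936427. Vehicle replicates 3 and 4 lay above every GnRH library and the change was -0.12 ± 0.13 (SE, 95% interval -0.41 to 0.16). Another Mcm4 probe (ILMN_2752010, above background on 3 GnRH and 4 vehicle arrays) had 5.24, 4.53, 5.51 and 5.37 in GnRH libraries, against 5.45, 5.30, 5.75 and 5.21 in vehicle libraries, with GnRH replicate 2 lowest and a change of -0.26 ± 0.22 (SE, 95% interval -0.76 to 0.23), and the remaining Mcm4 probe had a change of -0.21 ± 0.18.

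Mcm5 had 7.68, 7.89, 8.19 and 8.10 in GnRH libraries, against 7.31, 8.32, 8.08 and 8.09 in vehicle libraries. Vehicle replicate 1 was the lowest library and vehicle replicate 2 the highest, so the vehicle range enclosed the GnRH range, and the change was 0.02 ± 0.22 (SE, 95% interval -0.47 to 0.51). Mcm6 had 6.43, 6.05, 6.92 and 6.44 in GnRH libraries, against 6.50, 6.50, 6.32 and 5.64 in vehicle libraries on probe ILMN_1233857. Vehicle replicate 4 was lowest and GnRH replicate 3 highest, with a change of 0.22 ± 0.24 (SE, 95% interval -0.30 to 0.75). The other tested Mcm6 probes had changes of -0.11 ± 0.20 and 0.14 ± 0.16, so the signs were mixed, and the remaining Mcm6 probe was above background on no array. Mcm7 had 4.74, 5.13, 5.16 and 5.22 in GnRH libraries, against 4.89, 5.49, 5.43 and 5.87 in vehicle libraries. GnRH replicate 1 and vehicle replicate 1 were the lowest of their groups, and the change was -0.36 ± 0.21 (SE, 95% interval -0.82 to 0.11). The MCM genes whose promoters held an E2F match had changes of both signs, but every 95% interval included 0, so no direction was established for any of them.

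Pcna, the sliding clamp of DNA polymerases, had 9.50, 9.08, 8.78 and 8.78 in GnRH libraries, against 9.07, 9.0, 9.06 and 9.34 in vehicle libraries. GnRH replicate 1 was the highest library and GnRH replicates 3 and 4 the lowest, with a change of -0.08 ± 0.18 (SE, 95% interval -0.49 to 0.33). Tyms, which makes thymidylate, had 6.17, 6.02, 6.30 and 6.03 in GnRH libraries, against 6.87, 6.35, 6.60 and 6.08 in vehicle libraries on the probe with the lowest p (ILMN_2441899). Vehicle replicate 4 lay within the GnRH range and the other vehicle libraries above it, with a change of -0.34 ± 0.18 (SE, 95% interval -0.75 to 0.06). The 4 other Tyms probes had changes of 0.34 ± 0.32, -0.05 ± 0.40, -0.29 ± 0.21 and -0.05 ± 0.15. The ribonucleotide reductase subunit gene Rrm2 had 9.83, 9.70, 10.42 and 9.25 in GnRH libraries, against 10.37, 10.06, 9.95 and 9.66 in vehicle libraries on probe ILMN_2714565, with GnRH replicate 3 the highest library and GnRH replicate 4 the lowest, and a change of -0.21 ± 0.24 (SE, 95% interval -0.75 to 0.33). Its other probe had a change of -0.03 ± 0.14. Rrm1, the large subunit, had 7.26, 7.14, 7.11 and 7.08 in GnRH libraries, against 6.92, 6.95, 6.90 and 7.48 in vehicle libraries. Vehicle replicate 4 stood above all other libraries, and the change was 0.08 ± 0.16 (SE, 95% interval -0.27 to 0.44).

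In the G2/M group Ccna2, the cyclin A of S phase and G2, had 7.35, 7.47, 7.26 and 7.37 in GnRH libraries, against 7.33, 7.43, 7.99 and 7.87 in vehicle libraries. Vehicle replicates 3 and 4 lay above every GnRH library and vehicle replicates 1 and 2 among them, with a change of -0.29 ± 0.17 (SE, 95% interval -0.68 to 0.09). Cdk1, the kinase of mitotic entry, had 8.34, 7.74, 8.90 and 7.73 in GnRH libraries, against 8.68, 8.96, 8.27 and 7.78 in vehicle libraries on its tested probe (ILMN_2657844). Each group held high and low libraries, and the change was -0.25 ± 0.31 (SE, 95% interval -0.94 to 0.44). The other Cdk1 probes were above background on 0 and 1 GnRH arrays and on 1 and 2 vehicle arrays and were not tested. Ccnb2, a mitotic cyclin, and Bub1, a kinase of the spindle checkpoint, were above background on no array. Top2a, the topoisomerase that untangles sister chromatids, had 9.06, 8.27, 8.82 and 8.00 in GnRH libraries, against 9.69, 7.98, 8.34 and 7.06 in vehicle libraries. Vehicle replicate 1 was its highest and vehicle replicate 4 its lowest library, and the change was 0.27 ± 0.47 (SE, 95% interval -0.77 to 1.31).

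The CDC25 and checkpoint genes act on Cdk1. Cdc25c, a phosphatase that activates CDK1, had 4.95, 4.37, 5.43 and 4.74 in GnRH libraries, against 5.10, 5.90, 5.65 and 4.67 in vehicle libraries on probe ILMN_2733046, which was above background on 3 arrays of each group. Vehicle replicates 2 and 3 lay above the GnRH libraries, and the change was -0.46 ± 0.29 (SE, 95% interval -1.10 to 0.19). Its other probes had changes of -0.07 ± 0.18 and 0.02 ± 0.17. Chek1, the checkpoint kinase that restrains CDC25, had 6.51, 6.76, 6.59 and 6.52 in GnRH libraries, against 6.54, 6.63, 6.87 and 6.95 in vehicle libraries on probe ILMN_3009652. Vehicle replicates 3 and 4 were highest, with a change of -0.15 ± 0.14 (SE, 95% interval -0.47 to 0.17), while the other tested Chek1 probe had a change of 0.13 ± 0.15 and the remaining one was above background on no array. Plk1, a kinase of mitotic entry and exit, had 7.80, 8.00, 8.09 and 7.74 in GnRH libraries, against 7.42, 8.21, 7.64 and 7.66 in vehicle libraries. Vehicle replicate 2 was the highest library and vehicle replicate 1 the lowest, with a change of 0.17 ± 0.18 (SE, 95% interval -0.23 to 0.58). Cdc25b, Wee1 (the kinase that inhibits CDK1) and Aurka (a spindle kinase) had changes of -0.12 ± 0.16, 0.07 ± 0.25 and -0.00 ± 0.19, with overlapping groups.

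Cdc20, which directs the anaphase-promoting complex to its substrates, was covered by 4 tested probes that differed in spread. Probe ILMN_2698767, above background on 3 arrays of each group, had 5.94, 4.52, 7.20 and 4.82 in GnRH libraries, against 7.13, 7.23, 6.32 and 4.26 in vehicle libraries. Both groups held high and low libraries, and the change of -0.61 ± 0.71 (SE, 95% interval -2.18 to 0.96) had the widest interval of the members. Probe ILMN_2867899 of the same gene had 11.28, 11.29, 11.59 and 10.90 in GnRH libraries, against 11.22, 11.73, 11.30 and 10.92 in vehicle libraries, with vehicle replicate 2 highest and a change of -0.03 ± 0.20 (SE, 95% interval -0.48 to 0.42). The remaining Cdc20 probes had changes of -0.06 ± 0.18 and -0.05 ± 0.16.

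The spread among libraries of 1 group, pooled over both groups, was above 0.5 on the log2 scale for 12 of the 59 member probes (20.3%), against 9.22% of all tested probes, a bound chosen after the values were seen. The share was 6 of 24 probes in G1 (25%), 3 of 19 in S phase (15.8%) and 3 of 16 in G2/M (18.8%), and the median SD was 0.26 for members and for all tested probes alike. Of the 12, vehicle replicate 4, the array with the lowest raw median, was the lowest of the 8 libraries on 8 and the highest on 1. Vehicle replicate 1 was the highest on 7 and vehicle replicate 2 on 3. GnRH replicate 1 was the highest on 1, and GnRH replicates 2 and 4 were each the lowest on 1. The 12 include more than 1 probe of Cdk2, Cdkn1b and Tyms, and such counts were not taken over all tested probes. The part of array brightness in this spread was not tested. Probes of the same gene differed in spread in Cdk2, Cdc20 and Tyms, as the library-by-library values show.

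**Figure D3:**
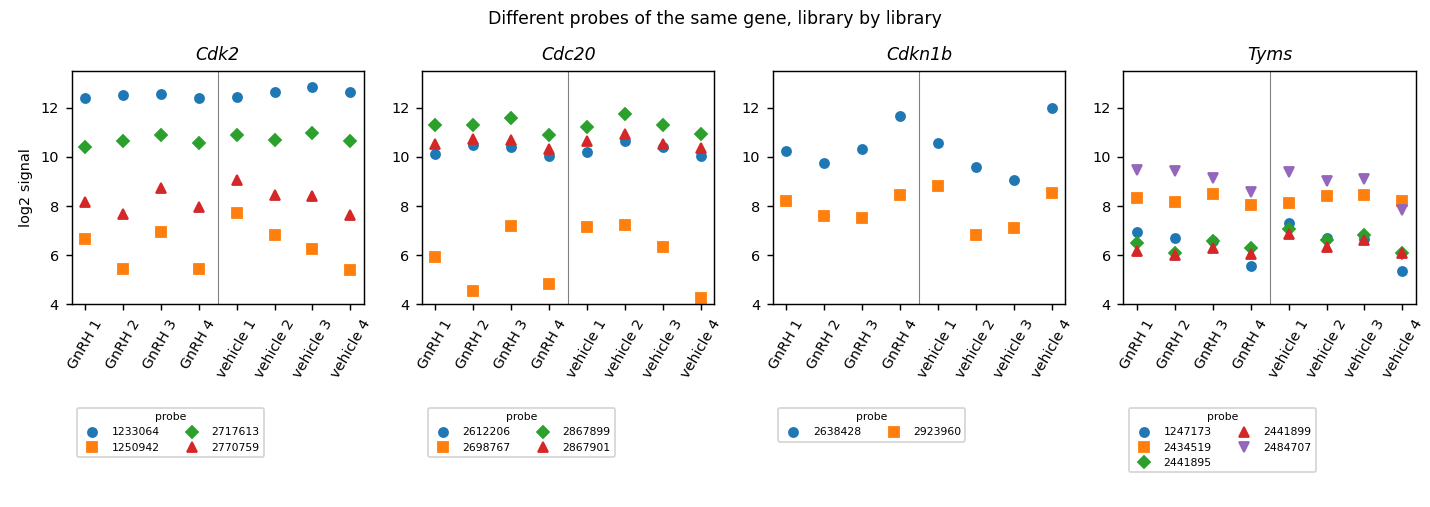
Log2 signal of each tested probe of Cdk2, Cdc20, Cdkn1b and Tyms by library, GnRH libraries left of the line and vehicle libraries right of it, with 1 symbol per probe. The Cdc20 probe ILMN_2698767 lies between 4.26 and 7.23, while ILMN_2867899 stays between 10.90 and 11.73.

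By phase group, the median change was -0.05 in G1 (9 probes higher, 15 lower), -0.08 in S phase (6 higher, 13 lower) and -0.06 in G2/M (5 higher, 11 lower), with a median SE of 0.18, 0.20 and 0.18. The G1 median was positive without vehicle replicate 1 (0.07) or GnRH replicate 4 (0.02), and the G2/M median without vehicle replicate 2 (0.05), whereas the S-phase median lay between -0.13 and -0.01 with any 1 library left out. Without normalisation between arrays the medians were 0.05, 0.06 and 0.09, all below the median of 0.11 over all tested probes in that setting. Within an array, the median log2 signal of the G1 probes was 8.59, 8.65, 8.75 and 8.57 in GnRH libraries, against 9.07, 8.77, 8.61 and 8.58 in vehicle libraries. That of the S-phase probes was 7.29, 7.21, 7.55 and 7.49 in GnRH libraries, against 7.31, 7.46, 7.38 and 7.48 in vehicle libraries. That of the G2/M probes was 8.24, 8.09, 8.45 and 7.73 in GnRH libraries, against 8.32, 8.17, 8.28 and 7.72 in vehicle libraries. The G1, S and G2/M medians come from different probes, so their order describes these probe sets and not the abundance of the messages.

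The S-phase median minus the G1 median of the same array averaged -1.26 ± 0.15 in GnRH and -1.35 ± 0.28 in vehicle libraries (SD, n = 4 each), a difference of 0.09. The G2/M median minus the G1 median averaged -0.51 ± 0.25 in GnRH and -0.64 ± 0.23 in vehicle libraries, a difference of 0.12. Both differences were smaller than the SD within a group and the groups overlapped in each. With 1 probe per gene both differences turned to -0.22, and without a filter on dim probes they turned to -0.11 and -0.17.

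**Figure D4:**
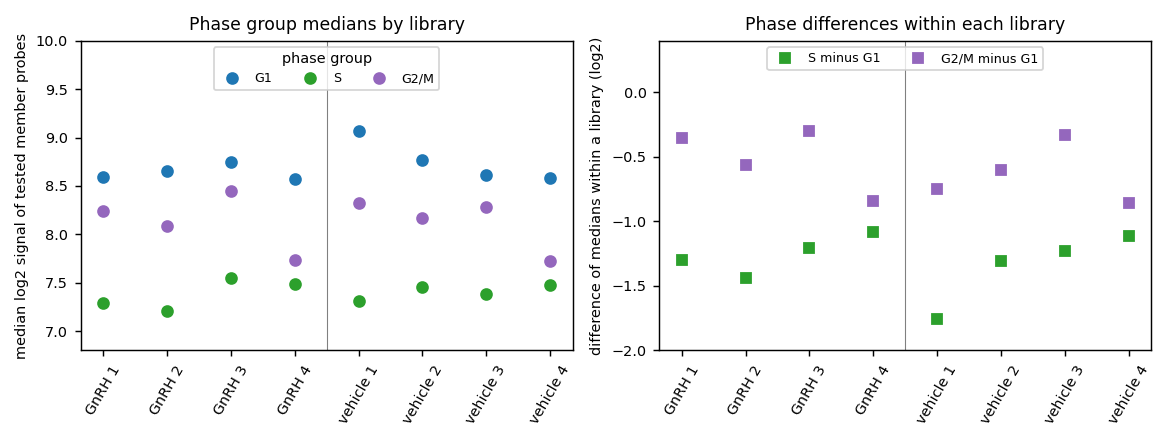
Left, median log2 signal of the tested probes of each phase group in each library; right, the S-phase and G2/M medians minus the G1 median of the same library (log2), with GnRH libraries left of the line and vehicle libraries right of it. GnRH and vehicle values overlap in all 3 phase groups and in both differences.

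Beyond the 42 genes, 5 further lists of cell cycle genes held 152 genes, of which 108 were tested on 150 probes. None was called in either direction by limma, against 0.265% of all tested probes called higher and 0% called lower. The median change was -0.05. An unadjusted p below 0.05 was reached by 6 of the 150 probes in the higher direction, against 2.09% of all tested probes, and by 2 in the lower direction, against 0.813%. Among other G1 regulators (13 genes tested, median change 0.02) the lowest p values belonged to Fbxw7, a ubiquitin ligase subunit that targets cyclin E (-0.32 ± 0.17, and -0.09 ± 0.17 on another probe), and Tfdp1, the E2F dimer partner (0.30 ± 0.20). Among other replication genes (33 tested, median -0.02) they belonged to Mcm10, a replication initiation factor (0.50 ± 0.20, and 0.24 ± 0.20 on another probe), and Cdc7, the kinase that fires origins (0.38 ± 0.17). Among other G2/M genes (37 tested, median -0.04) they belonged to the cytokinesis genes Ect2 (-0.44 ± 0.15) and Anln (0.56 ± 0.21).

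The DNA damage checkpoint list (11 genes tested, median -0.08) was led by Gadd45g, a stress gene of the growth arrest and DNA damage family. Its log2 signal was 4.77, 5.24, 5.49 and 4.85 in GnRH libraries, against 4.23, 4.30, 4.35 and 4.23 in vehicle libraries. It was above background on 4 GnRH arrays and on 0 vehicle arrays, so it passed the filter through the GnRH arrays alone. The groups did not overlap, and 1.53% of all tested probes also had all GnRH values above all vehicle values. For Gadd45g the filter itself favours such a separation. As vehicle libraries give only a bound, its mean in GnRH libraries was at least 1.37-fold higher, a bound that leaves out the spread between libraries. Its limma adjusted p was 0.220. Gadd45g was not called in the reported fit or in any of the 18 alternative fits that tested it (adjusted p 0.0805 to 0.925). The bound sets the GnRH mean over the vehicle mean of the lowest signal among probes above background on each array, or the probe's own where higher. Atrip, the partner of the ATR kinase, had a change of 0.51 ± 0.25.

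Among other cyclins and CDKs (14 genes tested, median -0.10), Ccni and Cdk11b had the lowest p. Ccni, an atypical cyclin, had 7.44, 7.56, 7.97 and 7.79 in GnRH libraries, against 8.01, 8.57, 8.60 and 8.15 in vehicle libraries. Every GnRH library lay below every vehicle library, as for 0.618% of all tested probes and 2 of the 150 further probes. The change of Ccni was -0.64 ± 0.19 with a limma adjusted p of 0.928, so it was not called. Array weights, an alternative fit, gave it a change of -0.90 ± 0.15 and a limma adjusted p of 0.0264, while the adjusted p ranged from 0.0264 to 1.00 over the 20 alternatives. Cdk11b, a kinase of transcription and splicing, had 6.70, 6.55, 6.60 and 7.62 in GnRH libraries, against 6.15, 6.30, 6.46 and 6.04 in vehicle libraries. Every GnRH library lay above every vehicle library, as for 1.53% of all tested probes and 4 of the 150 further probes. The change of Cdk11b was 0.63 ± 0.24 on this probe and 0.44 ± 0.21 on another, where the groups overlapped. Neither probe was called.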

How the data were processed

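RNA recovered with 5 µg of ELAVL1 antibody and 6 washes was measured in 4 GnRH and 4 vehicle libraries, with groups and replicate numbers taken from the sample titles. The signal used is the linear, non-normalised bead intensity that the authors deposited for each probe. Each signal has its own detection p-value, per the file headers. A second deposited table of processed intensity values, of unstated normalisation, served as an alternative.

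Signals were background-corrected by normexp from the detection p-values, given an offset of 16, quantile normalised and put on the log2 scale (limma 3.58.1, R 4.3.3). Quantile normalisation removes differences in total yield and array brightness, and the offset shrinks changes of dim probes. The probes tested had a detection p under 0.05 on 4 or more of the 8 arrays. The group contrast was fitted by lmFit and eBayes with no replicate block, with Benjamini-Hochberg adjustment at 0.05 over all 11318. The number of arrays limits the precision, and the median SE was 0.18. The fit was also run on simulated data with independent noise for the brighter probes. Good recovery was required there only of a change far larger than that of any member. That run does not bear on dim probes or on deviations shared between libraries, so it does not back the absence of calls.

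Probes were named from the platform annotation: of 25697 probes 23978 had 1 symbol, 0 several and 1719 none, and all 72 member probes kept their symbol after update through the RefSeq gene table. The members, their phase groups and the further lists were chosen with earlier results of these data known. Genes given library by library were the 5 with the lowest unadjusted p in each phase group and the D-type cyclins with a tested probe. Others were Cdkn1a, Cdkn1b, the MCM genes, Pcna, Cdk1, Top2a, Cdk6, Ccne2 and Rrm1. Mixed-sign or dim genes were given by name. Of each further list, the 2 genes with the lowest unadjusted p were given. Among these only Gadd45g, Ccni and Cdk11b, whose groups did not overlap, have values by library. Groups also did not overlap for probes of Cdc16, Prc1 and Chek2, which lay outside this rule. Promoters came from a RefSeq table of GRCm38.p6; no genome build is stated for the array tables in the sources used here. Alternatives were another background correction or offset, other normalisations, the deposited processed values, a stricter or no filter on dim probes, eBayes with trend and robust options, array weights, a replicate block, sample number as a covariate, genes that span phases left out, 1 probe per gene, and each library left out.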

Additional observations from a re-analysis of the deposited data

Results flagged for a closer look

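In 4 of 118 groups of 4 libraries examined over the tested member probes, 1 library stood apart from its group by Dixon's test at the 95% level. Chance alone gives about 1 such group in 20. Ccnd1 (ILMN_1221503) was 4.83 in GnRH replicate 4, against 5.28 to 5.31 in the other GnRH libraries. Ccne2 was 7.98 in vehicle replicate 1, against 5.69 to 5.94 in the other vehicle libraries. Cdkn1a (ILMN_2846776) was 8.87 in vehicle replicate 1, against 8.55 to 8.58 in the other vehicle libraries. Rrm1 was 7.48 in vehicle replicate 4, against 6.90 to 6.95 in the other vehicle libraries. None of these genes was called in any fit that left out the library named.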

How the results depend on the processing

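No member probe was called in any of the 20 alternative fits (0 of 1171 values). The lowest limma adjusted p was 0.132, for Rb1 with array weights, and that probe's adjusted p ranged from 0.132 to 1.00. The sign of the change differed from the reported one in 101 of those values, and 28 of 59 member probes kept their sign in every fit. Without normalisation between arrays the median change was 0.05 in G1, 0.06 in S phase and 0.09 in G2/M, in place of -0.05, -0.08 and -0.06, and the median over all tested probes was 0.11 in place of -0.01. Over all tested probes, the number higher was 30 in the reported fit, 14 with no filter on dim probes, 46 with array weights and 17 to 27 with 1 library left out, lowest without vehicle replicate 3. The number lower was 0, but 4 with array weights and 0 to 1 with 1 library left out, the 1 without vehicle replicate 1. Of the further cell cycle probes 1, of Ccni, was lower with array weights. For the differences between phase medians (S minus G1 0.09, G2/M minus G1 0.12), 1 probe per gene gave -0.22 and -0.22, and no filter gave -0.11 and -0.17; leaving out 1 library gave -0.04 to 0.18 and 0.04 to 0.23. Whether libraries of the same number belong together was not settled. The correlations of their deviations were 0.72, -0.23, 0.26 and 0.65 for replicates 1 to 4. Replicates 1 and 4 correlated best with their own number, whereas GnRH replicate 3 correlated best with vehicle replicate 2 (0.58). With a replicate block, 43 probes were higher and 0 lower, no member was called, and the phase medians stayed -0.05, -0.08 and -0.06. The cause of these shifts was not tested.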
